A study of Mus musculus with 2 samples.

Results

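This section describes 9 transcription factor genes that are used to read the layer fate of cortical projection neurons, 9 of the 32285 genes in the count tables. They were taken by symbol and comprised 5 genes associated with deep layers (Tbr1, Fezf2, Bcl11b, Sox5 and Tle4) and 4 associated with upper layers (Cux1, Cux2, Pou3f2 and Bhlhe22). All 9 genes had counts in both libraries and all 9 passed the filter on low counts. The questions were in which cells of the embryonic cortex each gene was read, how its level differed between progenitors and neurons, and which of the genes were read in the same neurons.

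The data were single-cell RNA sequencing of mouse embryos at embryonic day 14.5, from tissue the labels call brain hemispheres and the study calls dorsal telencephalon. The 2 libraries, called replicate 2 and replicate 4 after their titles, were both wild type (WT) of the EomesDot line, while the study describes the embryos used as C57BL/6J, and how these names relate is not stated. The study used such cells to predict ligands and receptors between migrating interneurons and cortical progenitors. Neither library carried a mutation or a treatment, so cell classes, and not groups of embryos, were compared, and the study states in general that it used embryos of different litters without tying these libraries to litters, so p-values measure the spread between these 2 libraries.

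Radial glial cells (RGCs) line the ventricle and divide to give neurons directly or through intermediate progenitor cells (IPCs). Deep-layer neurons are born first and upper-layer neurons later, and the factors described here are known to fix these fates partly by repressing each other: Fezf2 promotes the subcerebral fate and acts upstream of Bcl11b (Ctip2), Tbr1 promotes the corticothalamic fate and restrains Fezf2, and Sox5 holds back the subcerebral programme in the earliest neurons. Cux1 and Cux2, paired as homeodomain relatives of Drosophila cut, and Pou3f2 (Brn2) are known from late progenitors and upper-layer neurons.

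Replicates 2 and 4 held 1712 and 2589 barcodes with 40267872 and 49422008 UMIs (unique molecular identifiers, tags that mark 1 captured transcript each). Of 4301 barcodes, 3153 cells were retained, with a median of 30810 and 22948.5 UMIs per cell. The libraries shared 3 barcodes, of which 1 was retained in both. Cells were named from marker genes that exclude the 9 genes, so a class name carries "-like". The excitatory neuron-like class held 586 and 927 cells, the RGC-like class 212 and 356, the IPC-like class 118 and 170 and the class like interneurons of the medial ganglionic eminence (MGE) 54 and 82. Excitatory neuron-like clusters in which at least 3 of 8 IPC markers were raised were called early (clusters 1, 2, 12 and 16, with 242 and 436 cells) and the others later (clusters 0, 5, 7 and 8, with 344 and 491 cells). Levels are given per library as CPM, the UMI counts of a gene per 1000000 UMIs of the class, and compare a gene between cells, never one gene with another, since the capture of 3′ ends differs between genes.

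The genes lie on 8 chromosomes in the build the submitters name, mm10. Tbr1 (ENSMUSG00000035033) occupies chr2:61802863-61814114, Fezf2 (ENSMUSG00000021743) chr14:12338992-12346803 and Bcl11b (ENSMUSG00000048251) chr12:107910403-108004145 of the RefSeq annotation of that build. Sox5 (ENSMUSG00000041540) spans chr6:143828425-144782287, or 954 kb, and overlaps 6 other annotated genes. Tle4 (ENSMUSG00000024642) lies at chr19:14448072-14598183, Pou3f2 (ENSMUSG00000095139) at chr4:22482095-22488366 and Bhlhe22 (ENSMUSG00000025128) at chr3:18054325-18057514. Cux1 (ENSMUSG00000029705, chr5:136248135-136567590) and Cux2 (ENSMUSG00000042589, chr5:121857962-122050415) lie on the same chromosome. Cux1 overlaps 3 annotated genes, and Tle4 and Cux2 overlap 1 each. The Cux1 locus also makes the Golgi protein CASP through other 3′ exons, and counts by gene do not separate these products.

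Promoter sequences of 4 genes are shown. Tbr1 was taken because it rose by 6.09 on the log2 scale from RGC-like to neuron-like cells. Fezf2, Cux2 and Pou3f2 were taken for the pairs Fezf2 with Cux2 and Fezf2 with Pou3f2. Under every setting tried, these were the pairs read together less often than if detection of one gene were unrelated to detection of the other. Each window runs from 250 bases before to 50 bases after a RefSeq transcription start, 5′ to 3′ on the strand of the gene, in GRCm38.p6, which has the coordinates of mm10. The table of such windows held 10 windows for 8 of the 9 genes, and Bhlhe22 had none. Capitals mark letters found by a search on both strands for AACAAT (SOX factors), ATCGAT (CUT factors), CAGATG and CATATG (bHLH factors), AGGTGTG (part of a T-box half-site), ATGCAAA (part of the POU octamer) and TATAAA.

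Tbr1, chr2:61804203-61804502, plus strand: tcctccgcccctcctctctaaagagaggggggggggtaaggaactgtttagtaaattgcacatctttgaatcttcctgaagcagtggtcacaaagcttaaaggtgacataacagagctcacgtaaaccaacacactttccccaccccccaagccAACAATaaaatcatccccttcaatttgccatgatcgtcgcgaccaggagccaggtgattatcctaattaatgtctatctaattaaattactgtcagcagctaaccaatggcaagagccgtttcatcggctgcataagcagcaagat
Fezf2, chr14:12345816-12346115, minus strand: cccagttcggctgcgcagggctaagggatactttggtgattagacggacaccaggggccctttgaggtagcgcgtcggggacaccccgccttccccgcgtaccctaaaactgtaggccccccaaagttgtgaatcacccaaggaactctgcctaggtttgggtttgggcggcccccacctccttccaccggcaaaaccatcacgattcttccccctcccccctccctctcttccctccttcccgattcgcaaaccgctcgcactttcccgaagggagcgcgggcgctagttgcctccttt
Cux2, chr5:122047776-122048075, minus strand: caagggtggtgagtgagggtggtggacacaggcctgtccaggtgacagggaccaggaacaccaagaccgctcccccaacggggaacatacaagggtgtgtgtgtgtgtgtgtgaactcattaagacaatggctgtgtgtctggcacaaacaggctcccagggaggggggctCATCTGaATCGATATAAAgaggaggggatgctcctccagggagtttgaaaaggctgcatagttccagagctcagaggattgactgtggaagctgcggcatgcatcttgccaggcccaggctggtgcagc
Pou3f2, chr4:22488317-22488616, minus strand: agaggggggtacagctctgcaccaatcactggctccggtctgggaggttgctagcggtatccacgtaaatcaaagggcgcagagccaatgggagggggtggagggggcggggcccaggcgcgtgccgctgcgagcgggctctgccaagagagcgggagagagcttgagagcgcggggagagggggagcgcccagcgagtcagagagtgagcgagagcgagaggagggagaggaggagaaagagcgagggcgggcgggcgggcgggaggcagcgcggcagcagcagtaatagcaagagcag

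The Tbr1 window held AACAAT 96 bases before the start, a match present in 10.7% of the 32851 windows of all genes. The Cux2 window shown, the downstream one of 2, held ATCGAT 72 bases before its start, a match found in 0.925% of all windows, beside CAGATG read on the opposite strand (17.2% of windows) and TATAAA (13.6%), which overlaps ATCGAT by its first letter. No searched letters were present in the Fezf2 and Pou3f2 windows, or in the upstream Cux2 window, which is not shown. AGGTGTG and CATATG were in none of the 10 windows of these genes, against 5.84% and 3.91% of all windows. These matches describe the letters only.

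The deep-layer genes were all higher in excitatory neuron-like than in RGC-like cells. The largest differences were in Tbr1 and Bcl11b, which were low in RGC-like cells, whereas Fezf2, Sox5 and Tle4 were already read there. Among the upper-layer genes Bhlhe22 and Cux2 rose, Cux1 fell, and Pou3f2 did not pass the test. In all, 8 of the 9 genes differed between these classes with edgeR's quasi-likelihood test at an adjusted p under 0.05, 7 of them higher and 1 lower. The background was 54.4% of 13781 genes tested, 29.5% higher and 24.9% lower (4072 and 3426 genes, but 3559 and 3944 with DESeq2's size factors), and the median log2 difference of the 9 genes was 2.25 against 0.07 over all genes tested.

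**Figure D1:**
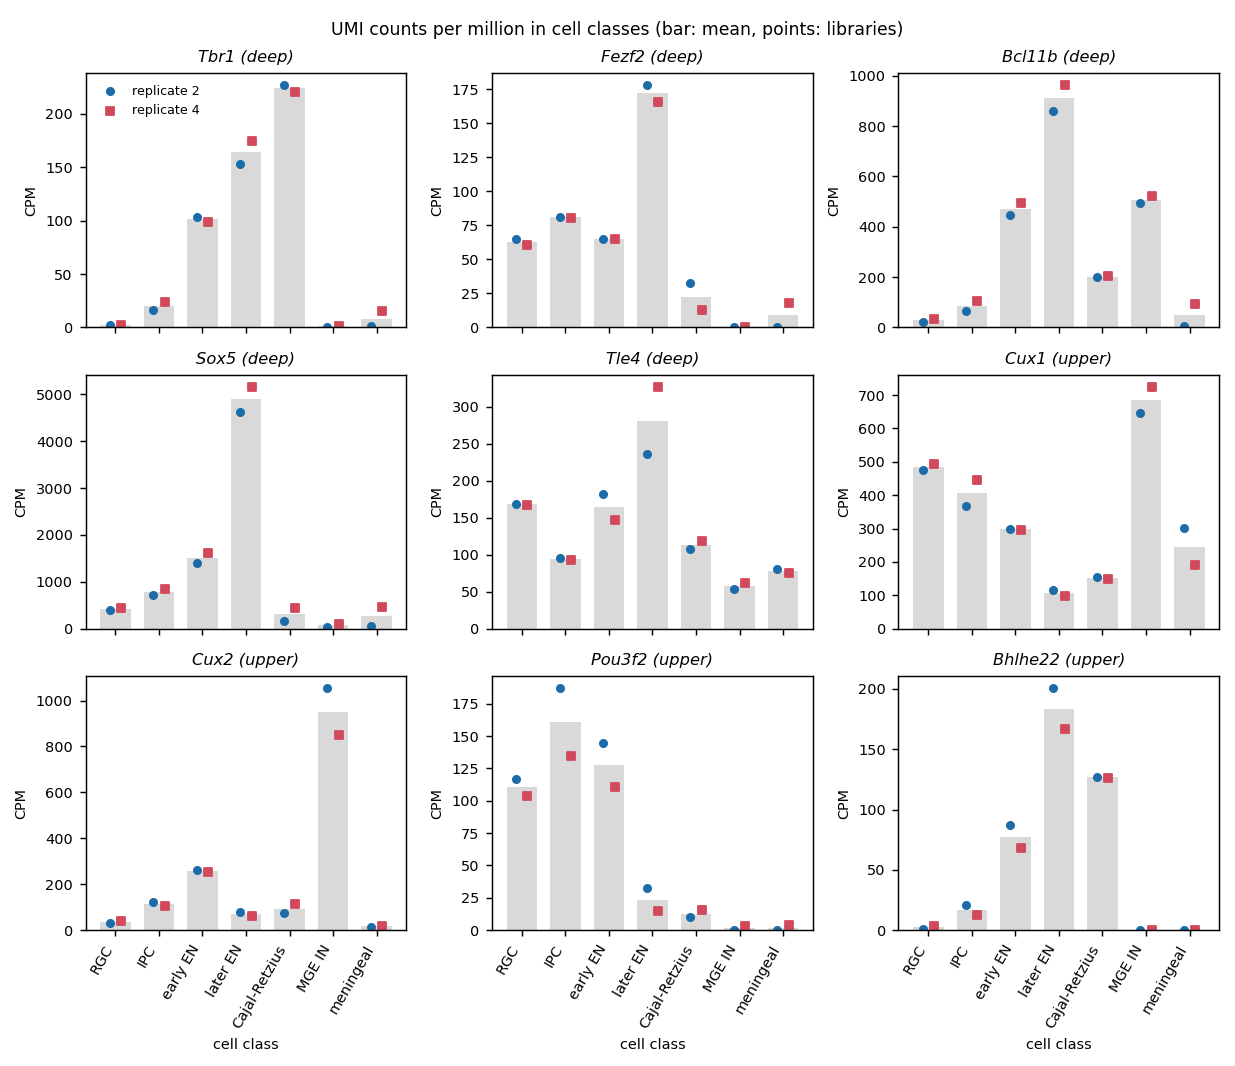
UMI counts per 1000000 UMIs (CPM, y axis, linear, from 0) of the 9 genes in 7 cell classes (x axis; EN, excitatory neuron-like; MGE IN, MGE interneuron-like). Grey bars give the mean of the 2 libraries, circles replicate 2 and squares replicate 4. Bcl11b, Sox5, Fezf2 and Bhlhe22 are highest in later EN in this set of classes, Tbr1 in Cajal-Retzius-like cells, and Cux1 and Cux2 in MGE IN.

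Tbr1, the T-box factor of newborn projection neurons, was at 2.05 and 2.67 CPM in RGC-like cells of replicates 2 and 4, at 15.8 and 23.7 CPM in IPC-like cells, at 103.5 and 99.1 CPM in early and at 153 and 174 CPM in later excitatory neuron-like cells. Its level was higher in each class than in the one before in both libraries, with no overlap between neighbours. The log2 difference was 3.11 ± 0.38 (SE; adjusted p = 0.000211) between IPC-like and RGC-like cells and 2.98 ± 0.30 (adjusted p = 2.22e-05) between excitatory neuron-like and IPC-like cells. The IPC-like level was carried by cluster 14 (42.9 and 46.3 CPM in 31 and 68 cells), while cluster 6 (87 and 102 cells) held 5.73 and 5.01 CPM, and 7 and 6 excitatory neuron markers were raised in these clusters. Both differences passed in all 14 alternatives, over which the first ran from 1.35 to 4.43 and the second from 1.71 to 4.49. Cajal-Retzius-like cells, the Reln-expressing neurons of the marginal zone, held 227 and 221 CPM in 16 and 24 cells.

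Fezf2, the zinc finger factor of subcerebral neurons, was read in RGC-like cells at 64.8 and 60.3 CPM and in IPC-like cells at 81.4 and 80.0 CPM, and this difference did not pass the test (log2 difference 0.44 ± 0.35, adjusted p = 0.406), although it passed in 1 of 14 alternatives (adjusted p = 0.0123). Early excitatory neuron-like cells were at 65.0 and 64.9 CPM and later ones at 178 and 166 CPM, so the later cells stood apart from the 3 classes before them in both libraries. Between early and later cells the log2 difference was -1.48 ± 0.31 (adjusted p = 0.00525). Over all excitatory neuron-like cells Fezf2 was 1.31 ± 0.34 higher than in RGC-like cells (log2, adjusted p = 0.00895), a call that DESeq2's Wald test did not make (adjusted p = 0.165). Against IPC-like cells it was 0.87 ± 0.35 higher (adjusted p = 0.0744, and 0.0429 with the library as a block), and this passed in 9 of 14 alternatives.

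Bcl11b, the zinc finger factor of corticospinal and other subcerebral neurons, had a level of 21.7 and 35.2 CPM in the RGC-like class. IPC-like cells held 65.0 and 105 CPM and excitatory neuron-like cells 718 and 775 CPM. It was higher in neurons than in IPC-like cells by 3.30 ± 0.64 on the log2 scale (adjusted p = 0.00196). The step from RGC-like to IPC-like cells, 1.64 ± 0.62, had an adjusted p of 0.0718, which became 0.0291 with the library as a block. It passed in 9 of 14 alternatives, over which it ran from 0.31 to 2.67, and the IPC-like level again came mostly from cluster 14 (153 and 176 CPM against 32.1 and 46.0 CPM in cluster 6). Early cells (445 and 493 CPM) lay below later ones (861 and 962 CPM) in both libraries, and this difference did not pass the test (-1.04 ± 0.54, adjusted p = 0.196) but passed in 4 of 14 alternatives and ran over all of them from -1.39 to -0.52.

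Sox5, the SoxD factor of subplate and deep-layer neurons, stood at 390 and 440 CPM in the RGC-like class, at 714 and 846 CPM in the IPC-like class and at 3514 and 3750 CPM in excitatory neuron-like cells (2.38 ± 0.70 above IPC-like cells on the log2 scale, adjusted p = 0.0198). Early cells held 1394 and 1621 CPM and later cells 4620 and 5161 CPM, groups that did not overlap (-1.78 ± 0.64, adjusted p = 0.0646, and 0.0137 with the library as a block), and the difference passed in 9 of 14 alternatives. Sox5 UMIs were present in 95.9% and 98.1% of excitatory neuron-like cells after each cell had been thinned to 5000 UMIs, and also in 32.3% and 44.4% of vascular and meningeal cells. Median depths before thinning were 34106 and 24900 UMIs in the neurons and 36786 and 27280 UMIs in the vascular and meningeal cells.

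Tle4, a Groucho-type corepressor of corticothalamic neurons, was at 169 and 168 CPM in RGC-like cells, fell to 95.9 and 93.0 CPM in IPC-like cells (log2 difference -0.77 ± 0.13, adjusted p = 0.00159) and stood at 217 and 256 CPM in excitatory neuron-like cells (1.48 ± 0.13 above IPC-like cells, adjusted p = 1.11e-05). It thus had its lowest level of these 3 classes in the IPC-like cells in both libraries. The difference between neurons and RGC-like cells was small (0.72 ± 0.13, adjusted p = 0.000684), and it did not pass with doublets kept (adjusted p = 0.120) or with genes scaled within each library (adjusted p = 0.157). The fall from RGC-like to IPC-like cells did not pass with genes scaled within each library (adjusted p = 0.212) or at Leiden resolution 0.5 (adjusted p = 0.137).

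Cux1, a CUT-homeodomain factor of progenitors and upper-layer neurons, was higher in the progenitors than in the excitatory neurons. RGC-like cells held 475 and 495 CPM and IPC-like cells 368 and 446 CPM, a difference that did not pass the test (-0.19 ± 0.20, adjusted p = 0.536), and at 180 and 176 CPM in excitatory neuron-like cells (-1.03 ± 0.20 against IPC-like cells, adjusted p = 0.00197). Within the excitatory class it fell from 300.1 and 295 CPM in early to 117 and 96.7 CPM in later cells (early higher by 1.39 ± 0.19, adjusted p = 0.000271). That call was not made with cells of at least 500 genes (adjusted p = 0.0656).

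Cux2, the second CUT-homeodomain gene, had another course. It was low in RGC-like cells (30.2 and 38.4 CPM), higher in IPC-like cells (121 and 105 CPM; log2 difference 1.79 ± 0.22, adjusted p = 0.000229) and higher again in early excitatory neuron-like cells (264 and 253 CPM), and it was at 77.7 and 62.2 CPM in later ones (early higher by 1.81 ± 0.21, adjusted p = 7.21e-05). Over the whole excitatory class (142 and 138 CPM) it was above RGC-like cells (2.25 ± 0.22, adjusted p = 9.03e-06) and did not pass the test against IPC-like cells (0.47 ± 0.21, adjusted p = 0.111), a difference that ran from 0.12 to 0.93 under 14 alternatives and passed in 5 of them. The difference of early and later cells did not pass at Leiden resolution 0.5 (adjusted p = 0.224) or with cells of at least 500 genes (adjusted p = 0.0639).

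Pou3f2, a POU-homeodomain factor of upper-layer neuron production, was present in RGC-like cells at 117 and 104 CPM, in IPC-like cells at 187 and 135 CPM and in early excitatory neuron-like cells at 145 and 111 CPM. Later cells held 32.7 and 14.5 CPM, below the other 3 classes in both libraries (early higher by 2.36 ± 0.36, adjusted p = 0.000479). Between excitatory neuron-like and IPC-like cells the log2 difference was -1.21 ± 0.28 (adjusted p = 0.00587). Against RGC-like cells it was -0.60 ± 0.28 (adjusted p = 0.0889, and 0.0400 with the library as a block), and it passed in 9 of 14 alternatives.

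Bhlhe22 (Bhlhb5), a bHLH repressor known for the areal identity and axon targeting of postmitotic projection neurons, was low in RGC-like cells (1.09 and 3.29 CPM). It stood at 21.1 and 12.2 CPM in IPC-like cells (2.90 ± 0.42 above RGC-like cells, adjusted p = 0.00123; with doublets kept 1.55, adjusted p = 0.0961) and at 162 and 127 CPM in excitatory neuron-like cells (3.28 ± 0.33 above IPC-like cells, adjusted p = 7.07e-05). Unlike the other 3 upper-layer genes it was lower in early than in later excitatory neuron-like cells, at 86.9 and 68.1 against 201 and 167 CPM (-1.33 ± 0.26, adjusted p = 0.00468).

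By stage, 4 of the 9 genes differed between IPC-like and RGC-like cells, with Tbr1, Cux2 and Bhlhe22 higher and Tle4 lower, where the background was 27.0% of genes (12.8% higher, 14.2% lower). Between excitatory neuron-like and IPC-like cells 7 differed, 5 higher and 2 lower, against a background of 38.1% (21.3% higher, 16.8% lower). Between early and later excitatory neuron-like clusters 7 differed, against 24.6% of 14839 genes. Cux1, Cux2 and Pou3f2 were higher in the early clusters (background 9.84%), and Tbr1, Fezf2, Tle4 and Bhlhe22 were lower (background 14.8%). The higher genes numbered 1460 in all, and 2559 when the other classes were left out of the fit. The Tbr1 call, -0.78 ± 0.24 with an adjusted p of 0.0328, was lost in 4 of 14 alternatives, with adjusted p from 0.0560 to 0.402.

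**Figure D2:**
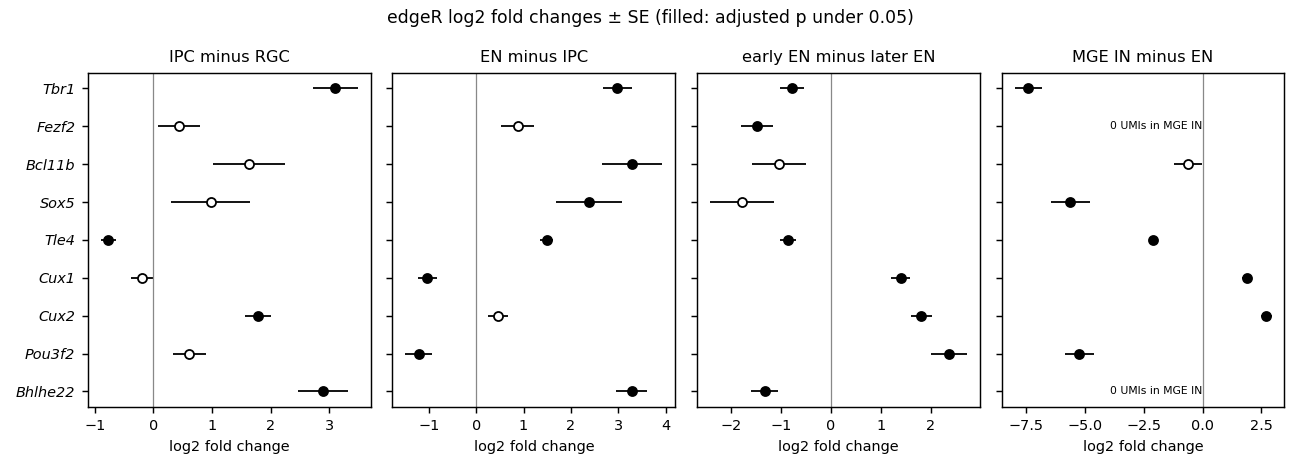
Log2 fold changes of the 9 genes (x axis, edgeR) with standard errors as bars, in 4 comparisons of cell classes, over 2 libraries. Filled points passed an adjusted p under 0.05, open points did not. Fezf2 and Bhlhe22 have no point against MGE interneuron-like cells, where they had 0 UMIs. Cux1, Cux2 and Pou3f2 are to the right of 0 for early minus later EN, and the other 6 genes to the left.

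MGE interneuron-like cells had some of these genes at high levels and 0 or few UMIs of others. They were higher in Cux1, at 647 and 725 CPM against 180 and 176 CPM in excitatory neuron-like cells (log2 difference 1.89 ± 0.20, adjusted p = 0.000105), and in Cux2, at 1054 and 849 against 142 and 138 CPM (2.71 ± 0.22, adjusted p = 1.46e-05). Bcl11b was at 495 and 522 CPM and did not pass the test against its level in excitatory neuron-like cells (-0.62 ± 0.58, adjusted p = 0.524), although the difference passed with all genes of at least 1 count (adjusted p = 0.00364) and when the other classes were left out of the fit (adjusted p = 0.0212). In this comparison 8 of 9 genes differed, 2 higher and 6 lower, against 20.5% of all genes (7.76% higher, 12.7% lower).

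The 6 genes that were lower ranged from Tle4, at 53.8 and 61.4 CPM (-2.10 ± 0.15, adjusted p = 6.29e-06), and Sox5, at 42.6 and 111 CPM (-5.63 ± 0.83, adjusted p = 0.000749), to genes with few or no UMIs. Fezf2 and Bhlhe22 had 0 UMIs in MGE interneuron-like cells of both libraries. With a floor of 3 counts per library, Fezf2 was at least 57.8-fold lower in replicate 2 and at least 47.0-fold lower in replicate 4 than in excitatory neuron-like cells, and Bhlhe22 at least 67.1-fold and 47.7-fold lower. Tbr1 had 1 UMI in each library, so that excitatory neuron-like cells were 170-fold higher in replicate 2 (exact 95% interval 30.5 to 6710) and 162-fold higher in replicate 4 (29.1 to 6406). Pou3f2 had 0 UMIs in replicate 2, at least 29.6-fold lower, and 4 UMIs in replicate 4, at 3.56 against 52.9 CPM (adjusted p = 0.000164 over both). These intervals and floors cover counting error only.

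In the other cells the genes separated further. Striatal projection neuron-like cells, 66 in replicate 4 and 2 in replicate 2, were too few for a test, and in replicate 4 they held 2118 CPM of Bcl11b and 651 CPM of Tle4, beside 1.92 CPM of Tbr1 and 2.89 CPM of Fezf2. Cells like interneurons of the caudal ganglionic eminence, 31 cells in replicate 4, held 736 CPM of Bcl11b and 440 CPM of Cux1 with 0 UMIs of Fezf2 and Bhlhe22. Meningeal cells differed between the libraries. In replicate 4 they held 472 CPM of Sox5 and 93.5 CPM of Bcl11b, and in replicate 2 they held 69.1 and 3.77 CPM. Tbr1 (1.26 and 15.1 CPM in replicates 2 and 4) and Fezf2 (0 and 18.1 CPM) were also higher in meningeal cells of replicate 4. The part that free RNA had in these values was not tested.

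The excitatory neuron-like clusters spread the genes out along opposite ends. Clusters 5 and 7, of the later set, were high in deep-layer genes and nearly without Cux1, Cux2 and Pou3f2, and the early clusters 1, 2 and 12 carried all 3 of these. The clusters were formed without the 9 genes, and their values are descriptions with no test. Cluster 7 was highest in Tbr1 (284 and 271 CPM) and in Tle4, at 757 and 820 CPM against 117 and 175 CPM in cluster 5. Fezf2 was at 290 and 231 CPM in cluster 7 and at 237 and 254 CPM in cluster 5, and these 2 clusters overlapped over the libraries. Sox5 reached 6155 and 7377 CPM in cluster 5 and 6708 and 6947 CPM in cluster 7.

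In the same 2 clusters Cux1 was at 13.9 and 16.9 CPM (cluster 5) and 12.9 and 35.4 CPM (cluster 7), the lowest levels of the 8 clusters. The highest were in cluster 1, with 385 and 338 CPM of Cux1 and 447 and 470 CPM of Cux2. Pou3f2 was highest in cluster 12, the excitatory cluster with the most raised IPC markers (7 of 8), at 280 and 229 CPM. Bhlhe22 peaked elsewhere, in the later cluster 8, at 298 and 297 CPM, where Cux1 was at 111 and 126 CPM. Cluster 16, early and led by Neurod1 and Eomes, was an exception among the early clusters, with 17.1 and 9.58 CPM of Cux2 and 5.04 and 2.21 CPM of Pou3f2 beside 235 and 225 CPM of Cux1. Cluster 5 had Rspo3, a marker of the cortical hem, among its 10 leading genes.

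**Figure D3:**
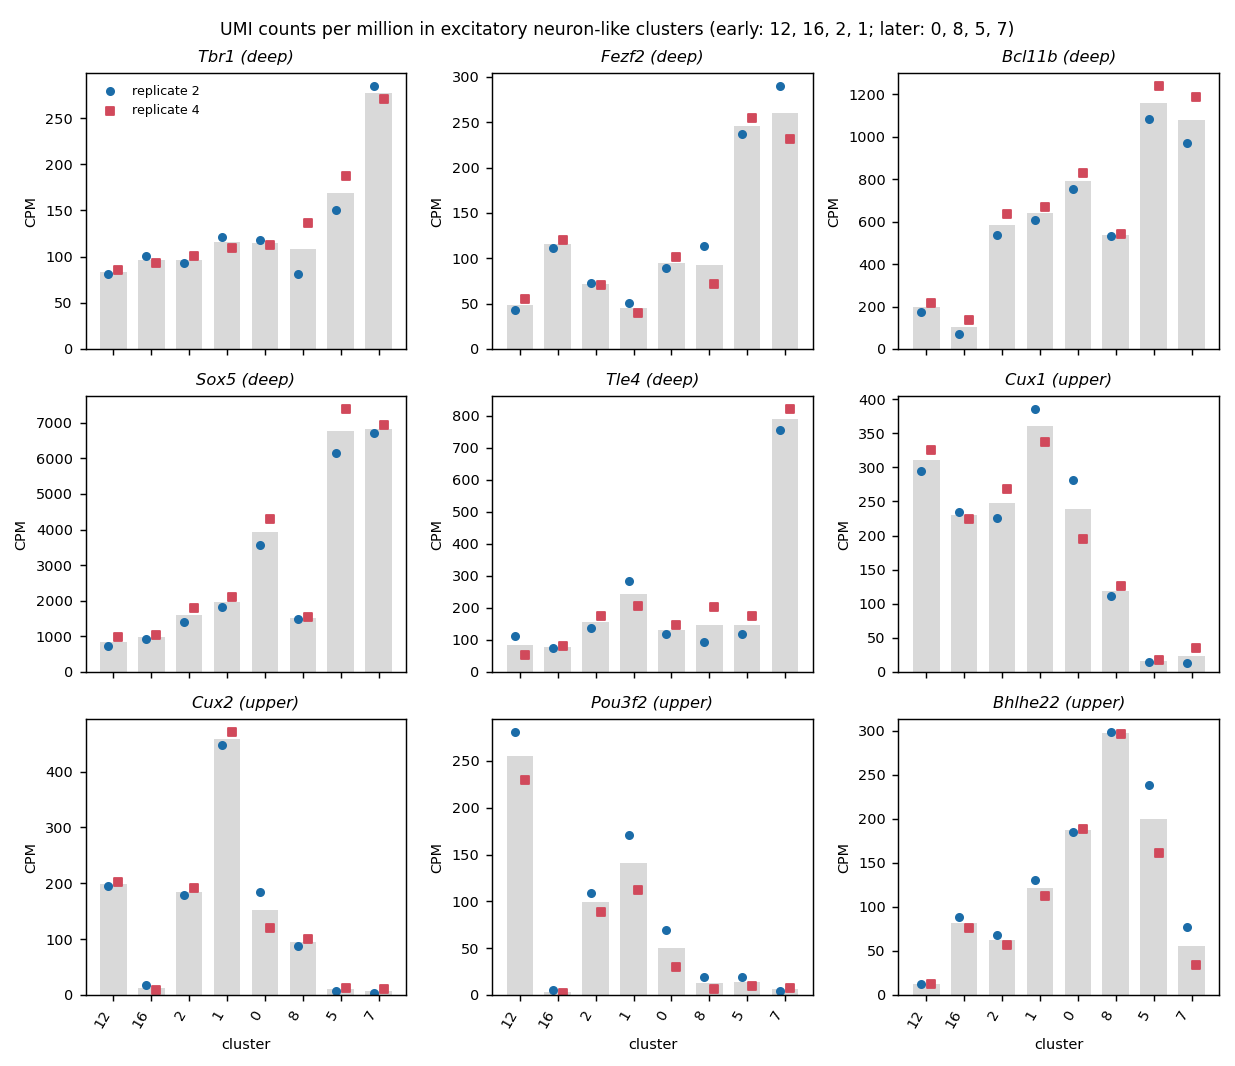
UMI counts per 1000000 UMIs (CPM, y axis, linear, from 0) of the 9 genes in the 8 excitatory neuron-like clusters (x axis, cluster numbers; early clusters 12, 16, 2 and 1, later clusters 0, 8, 5 and 7). Grey bars give the mean of the 2 libraries, circles replicate 2 and squares replicate 4. Tle4 stands out in cluster 7, at 757 and 820 CPM, and Cux1, Cux2 and Pou3f2 are low in clusters 5 and 7.

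Progenitor clusters also differed in some of these genes. Within RGC-like cells Sox5 was lowest in cluster 13 (187 and 165 CPM), led by dividing-cell genes such as Cdc20 and Ccnb1, and stood at 545 and 505 CPM in cluster 3. Cux1 was at 298 and 326 CPM in cluster 13 and at 462 and 511 CPM in cluster 3. Of the IPC-like clusters, cluster 14, in which Tbr1 and Bcl11b were higher than in cluster 6 in both libraries, was led in part by dividing-cell genes such as Top2a and Mki67.

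Shares of cells with a UMI, after thinning each cell to 5000 UMIs, gave the background behind these levels. In excitatory neuron-like cells (580 and 902 cells) Tbr1 was present in 42.2% and 46.3%, Fezf2 in 34.5% and 32.6%, Bhlhe22 in 41.4% and 36.8% and Pou3f2 in 24.0% and 19.1%. In vascular and meningeal cells (31 and 54 cells) Tbr1 was present in 0% and 3.70%, Fezf2 and Bhlhe22 each in 0% and 1.85%, and Pou3f2 in 0% of both libraries, where the upper exact limits for 0 cells were 11.2% of 31 and 6.60% of 54. Bcl11b was present in 81.6% and 85.6% of the neurons against 6.45% and 11.1%, and Cux2 in 35.0% and 34.6% against 9.68% and 3.70%. Tle4, at 40.5% and 46.5% of neurons, was also in 35.5% and 20.4% of vascular and meningeal cells. Cux1 was in 48.6% and 49.7% of neurons, fewer than the 67.7% and 59.3% of vascular and meningeal cells. These cells therefore give no background for Cux1, whose share ran from 2.04% and 5.41% in excitatory cluster 5 to 94.3% and 96.0% in MGE interneuron-like cells.

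Co-detection asked which factors were read in the same neuron. Excitatory neuron-like cells were thinned to 10000 UMIs each, which left 561 and 827 cells, and 25 and 100 shallower cells were left out. A median of 6 and 5 of the 9 genes had a UMI per cell. At least 1 deep-layer and 1 upper-layer gene were read together in 91.1% of cells of replicate 2 (exact 95% binomial interval 88.4 to 93.3) and in 87.3% of replicate 4 (84.8 to 89.5). RGC-like cells had a share of 96.4% and 96.2% by the same measure, and IPC-like cells one of 98.2% and 97.1%, so it was not higher in the neurons. On the deep-layer side, Sox5 was read in 97.9% and 98.5% of the excitatory neuron-like cells at this depth and in 42.3% and 58.3% of vascular and meningeal cells. Bcl11b was read in 89.5% and 92.1% of these neurons, and at least 3 deep-layer genes in 88.1% and 88.5%. The share without Sox5 was not computed. The remaining neurons, 50 and 105, had deep-layer genes without an upper-layer gene. In later clusters the share without any upper-layer gene was 14.4% and 21.8%, and in early clusters 1.28% and 2.09%. All 5 deep-layer genes were read in 22.6% and 19.6% of excitatory neuron-like cells.

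Cux1, Cux2 and Pou3f2 were read together. Of cells with Cux1, 64.0% had Cux2 in replicate 2 (interval 58.6 to 69.2) and 60.5% in replicate 4 (56.1 to 64.7), against 21.0% and 16.1% of cells without Cux1. The odds ratio of co-detection, which is 1 where detection of one gene is unrelated to detection of the other, was 6.62 and 7.88 for this pair, 7.74 and 5.08 for Cux2 with Pou3f2 and 4.91 and 8.61 for Cux1 with Pou3f2. Within clusters, combined by the Mantel-Haenszel method, these became 1.75 and 3.44, 3.31 and 2.02, and 1.80 and 3.76. All 3 pairs were thus above 1 in both libraries within clusters, while in the early clusters alone Cux1 with Pou3f2 stood at 0.50 in replicate 2 and 4.64 in replicate 4.

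Fezf2 was read less often in cells with any of these 3 genes. Of cells with Fezf2, 31.6% (26.4 to 37.1) and 29.6% (25.2 to 34.3) had Cux2, against 63.8% (57.5 to 69.7) and 57.3% (52.4 to 62.2) of cells without it. The odds ratios of Fezf2 were 0.26 and 0.31 with Cux2, 0.28 and 0.29 with Cux1, and 0.23 and 0.39 with Pou3f2. Within clusters they were 0.45 and 0.51, 0.57 and 0.44, and 0.36 and 0.61, and with Cux1 the early clusters alone gave 1.07 and 0.70. The separation was not complete, as 97 and 122 cells had UMIs of both Fezf2 and Cux2. Over the main setting and 7 alternatives, 2 of the 36 pairs were under 1 in both libraries every time, Fezf2 with Cux2 and Fezf2 with Pou3f2. In the same way 3 pairs were over 1 every time, Cux1 with Cux2, Cux2 with Pou3f2 and Tbr1 with Bcl11b (2.65 and 1.92).

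Over all excitatory neuron-like cells Bhlhe22 had odds ratios under 1 with the other upper-layer genes, which separated most clearly for Pou3f2. Its odds ratios were 0.61 and 0.55 with Cux1, 0.76 and 0.71 with Cux2 and 0.49 and 0.46 with Pou3f2, and 1.58 and 1.48 with Fezf2. Of cells with Pou3f2, 47.4% (40.2 to 54.7) and 34.9% (28.8 to 41.3) had Bhlhe22, against 64.8% (59.7 to 69.6) and 54.0% (49.9 to 58.1) of the other cells. For Cux2 the shares were 55.2% (48.9 to 61.4) and 43.6% (38.4 to 48.9), against 61.9% (56.2 to 67.4) and 52.2% (47.6 to 56.9). These intervals overlapped in both libraries, and those for Cux1 overlapped in replicate 2. The pair with Cux2 was under 1 in both libraries in 5 of 8 settings. Within clusters the ratio with Pou3f2 was 0.52 and 0.60. In the later clusters alone the ratios were 0.79 and 1.09 with Cux1, 1.17 and 1.47 with Cux2 and 0.87 and 1.12 with Pou3f2, so the pair with Cux2 was over 1 in both libraries there and the other pairs in replicate 4.

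Among the deep-layer genes, Tbr1 and Fezf2 had odds ratios of 1.24 and 1.02, and of 0.80 and 0.79 within clusters. Of cells with Tbr1, 56.6% (51.3 to 61.7) had Fezf2 in replicate 2 and 264 of 528 cells in replicate 4 (45.7 to 54.3%), against 51.3% (44.0 to 58.5) and 49.5% (43.7 to 55.3) of cells without Tbr1, so the intervals overlapped. Sox5 was read in nearly every cell, and its ratios rest on 12 cells without it in each library. Of all 36 pairs, 15 were over 1 in both libraries, 14 were under 1 in both and 7 differed in side. Of the 20 pairs of a deep-layer with an upper-layer gene, 11 were under 1 and 5 over 1 in both. The tally was opposite in the early clusters alone, with 3 under and 11 over 1, and in the later clusters alone 14 were under and 2 over 1. Under the other 5 settings 9 to 13 were under 1 and 2 to 7 over 1.

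**Figure D4:**
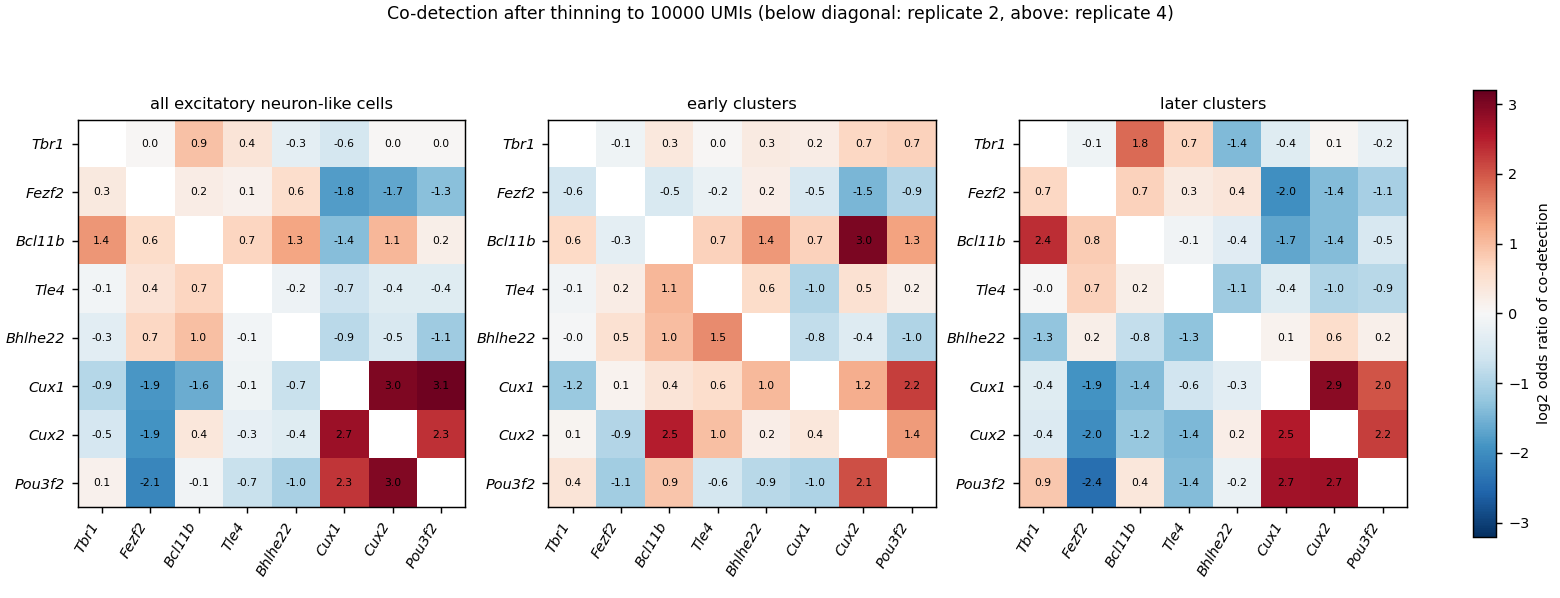
Log2 odds ratio of co-detection for pairs of 8 genes (rows and columns; Sox5, read in nearly every cell, is left out) in excitatory neuron-like cells thinned to 10000 UMIs, for all cells, early clusters and later clusters. Replicate 2 is below the diagonal and replicate 4 above it, with red above 0 and blue below 0. Cux1, Cux2 and Pou3f2 form a red block in all cells and in later clusters, and their cells with Fezf2 are blue.

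A list of 18 further genes of layer and projection neuron identity moved as follows. Between excitatory neuron-like and RGC-like cells 10 were higher, 3 lower and 5 did not pass (median log2 difference 1.71), against 29.5% and 24.9% of all genes tested. Among those higher was Mef2c (3.58), and those lower were Etv1 (-2.66), Nr4a2 (-1.85) and Ski (-0.997). Crym, which had the highest fitted fold, was at 14.7 and 14.8 CPM in the neurons and had 1 UMI in RGC-like cells of each library, so no fold is given. Between excitatory neuron-like and IPC-like cells 10 were higher and 2 lower (median 1.10; background 21.3% and 16.8%), among them Mef2c (4.04), Ldb2 (3.87), Etv1 (-1.42) and Nr4a2 (-0.66), with Crym at 0 UMIs in IPC-like cells. Between IPC-like and RGC-like cells 2 were higher, Pou3f1 (3.27) and Id2 (1.82), and 3 lower, Ski (-1.98), Etv1 (-1.24) and Nr4a2 (-1.19), and the median was -0.04, or 0.05 with genes at 0 UMIs set to their bound. These 5 of 18 genes are a share near the background of 27.0%. Between early and later clusters 4 were higher in early cells (background 9.84%), among them Lhx2 (1.76), Pou3f3 (1.73) and Foxp2 (1.41), and 9 were lower (median -0.63; background 14.8%), among them Ldb2 (-5.41), Mef2c (-4.17) and Crym, which had 0 and 2 UMIs in early against 301 and 349 in later cells. Against excitatory neuron-like cells, MGE interneuron-like cells had 3 of the list higher, namely Mef2c (1.95), Etv1 (1.82) and Ski (1.43), and 14 lower (median -2.62; background 7.76% and 12.7%), with Crym at 0 UMIs and Bcl6 at 0 and 1 UMIs.

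Over the 12 sums of library and class, genes whose log2 level followed each factor most closely were Wnt7b and Pcp4 for Tbr1 (Pearson's r = 0.979 and 0.978), Prex1 for Fezf2 (0.935), Khdrbs2 and Nbea for Bcl11b (0.994 and 0.970) and Prex1 and Ssbp3 for Sox5 (0.933 and 0.930). Tle4 was followed by Dab1 and Lmo1 (0.945 and 0.930), Cux1 by Sox6 and Alk (0.956 and 0.952), Cux2 by Dip2c and Tbc1d9 (0.970 and 0.968), Pou3f2 by 2610035D17Rik and Odc1 (0.970 and 0.963) and Bhlhe22 by Necab3 and Sh3bgrl2 (0.975 and 0.968). None of the 9 genes was among the nearest 2 of another. The sums come from 6 classes in 2 libraries and share library and depth, so these values describe likeness and carry no test.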

How the data were processed

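Single cells of 2 WT libraries were analysed. The authors prepared them with a 10x Genomics 3′ kit and, per the labels, processed the reads with Cell Ranger 7.0.0 on mm10. The deposited tables hold the authors' unnormalized UMI counts, and whether intronic reads were counted is not stated. Cells needed 1000 detected genes or more and no more than 10% of UMIs from mitochondrial genes. Scrublet marked 14 (1.16%) and 15 (0.761%) doublets, which were left out. Leiden clustering (scanpy 1.11.5, resolution 1, 20 neighbours, 30 principal components, 2000 variable genes without the 9 genes and the list of 18) gave 24 clusters. Clusters took a name from at least 3 raised markers (a level above the median cluster by 1 or more on the log2 scale after adding 10 CPM, with UMIs in 25% of cells or more). This rule was completed after clusterings had been seen: a cluster led by at least 2 markers of another class, and by more of these than of its own, lost its name and took the next class where at least 50% of that class's markers were raised. Cluster 10 (47 and 91 cells) lost its name in this way, cluster 15 had under 3 raised markers of any class, and cluster 17 (median 5850.5 and 4255 UMIs) stayed unnamed by a further rule for clusters of low depth with no marker of their name among their leading genes, which left 134 and 160 cells unnamed.

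UMI counts were summed per library and class of at least 10 cells in each library, giving 12 sums, and tested with edgeR 4.0.16 in R 4.3.3 (TMM, filterByExpr, quasi-likelihood test, Benjamini-Hochberg adjustment), after a check on simulated data, in which most comparisons made a larger share of false calls than the threshold allows. Early and later clusters were fitted apart, over 14839 genes. Sums of 1 library come from the same cell suspension, and their deviations correlated with a median of 0.168 over 15 class pairs (0.0392 to 0.401), so the library as a block was run as an alternative. DESeq2 1.42.0 was another. Counting cluster 12 as IPC-like and co-detection in early clusters alone were alternatives added after seeing the data. The comparison of striatal projection neuron-like cells was not run, as replicate 2 held 2 of them. Odds ratios had 0.5 added to each cell count, and were recomputed with other thinning, another draw, at least 2 UMIs, within clusters, and in early or later clusters alone. Shares have exact binomial intervals. All 9 genes are named whatever their result, and of the list of 18 at most 3 called genes in each direction per comparison. Of other genes, the 2 whose level followed each factor most closely are named. Some genes that these rules pick are not reported here. The genes, lists and tests were chosen with earlier results of these data known.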

Additional observations from a re-analysis of the deposited data

Results flagged for a closer look

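With 0.5 added to each count, the odds ratios of 8 gene pairs lay on opposite sides of 1 in early and later excitatory neuron-like clusters, in both libraries. The difference between early and later cells was not tested, and the early clusters were set apart after seeing the data. Bcl11b with Cux2 stood at 5.66 and 8.10 in early cells of replicates 2 and 4 and at 0.43 and 0.38 in later cells. Bcl11b with Cux1 stood at 1.33 and 1.68 in early and 0.38 and 0.32 in later cells. For Bcl11b with Bhlhe22 the ratios were 1.98 and 2.63 in early and 0.59 and 0.78 in later cells. Tle4 with Cux2 gave 1.97 and 1.40 in early and 0.37 and 0.51 in later cells. Tle4 with Bhlhe22 gave 2.84 and 1.51 in early and 0.41 and 0.45 in later cells. Fezf2 with Bcl11b went the other way, at 0.80 and 0.71 in early and 1.76 and 1.68 in later cells. Sox5 was read in 233 of 234 and 381 of 383 early cells, so the few cells without it set the side of its early ratios. With Cux1 the ratios of Sox5 were 2.50 and 1.56 (early) and 0.23 and 0.43 (later). No early cell lacked both of these genes, so the early ratios are over 1 only through the 0.5 added to each count. With Bhlhe22 the ratios of Sox5 were 0.27 and 0.54 (early) and 3.81 and 1.52 (later). Combined within clusters, the ratios of Bcl11b were 1.49 and 1.92 with Cux2, 0.92 and 0.90 with Cux1, 0.64 and 1.84 with Bhlhe22 and 0.76 and 1.06 with Fezf2. Those of Tle4 were 0.68 and 0.68 with Cux2 and 0.95 and 0.81 with Bhlhe22, and those of Sox5 were 0.36 and 0.70 with Cux1 and 3.42 and 2.09 with Bhlhe22.

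The 515 and 633 barcodes that were left out of the cells held UMIs of all 9 genes, above the limit that a count of 0 allows in both libraries. The mean level over the libraries was 64.7 CPM for Tbr1, 53.9 CPM for Fezf2, 385 CPM for Bcl11b, 1468 CPM for Sox5 and 185 CPM for Tle4. It was 276 CPM for Cux1, 103 CPM for Cux2, 43.3 CPM for Pou3f2 and 65.6 CPM for Bhlhe22. The libraries differed most in Cux2, at 142 CPM in replicate 2 and 65.0 CPM in replicate 4, and in Sox5, at 1906 and 1030 CPM.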

How the results depend on the processing

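Of 630 values of the 9 genes under 14 alternatives, 562 kept their side of the threshold, 55 passed only under the alternative and 13 passed only in the reported fit, and none changed direction. With classes made from 1 random part of the UMIs and tested on the other, no call of the 9 genes was lost. The library as a replicate block changed 4 calls of the 9 genes, all to a pass (Pou3f2 at -0.61 against RGC-like cells, Bcl11b at 1.64 in IPC-like cells, Fezf2 at 0.87 against IPC-like cells and Sox5 at -1.78 between early and later cells, on the log2 scale), and no other. The count of genes that differed between IPC-like and RGC-like cells was 3724, and 2244 at Leiden resolution 0.5, where the IPC-like class held 161 and 224 cells, and the cause was not tested. All other totals were within 1.5 times. Of genes called between MGE interneuron-like and excitatory neuron-like cells 37.9% were higher, and 48.0% with DESeq2's Wald test. DESeq2's size factors moved the median of all genes between excitatory neuron-like and RGC-like cells by -0.11 (log2). Leaving out a library leaves 1 per class and no test. The value left is a log2 ratio of CPM with 1 added, set beside the edgeR difference, which is scaled by TMM. Of 90 such values 55 lay further from that difference than the standard deviation of the 2 libraries, 35 did not, and no called difference changed sign. On a common scale no value could lie beyond that limit, so these counts do not measure the effect of leaving out a library. Counting the newborn cluster 12 as IPC-like, and co-detection in early clusters alone, were chosen after seeing the data. The 2 libraries limit every p-value, and classes under 10 cells in a library were not tested.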
